A study of Mus musculus with 12 samples.

Results

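Measured here were 8 genes of the machinery that keeps germline genes silent outside the germline, in mouse epiblast-like cells (EpiLCs) with and without the histone demethylase KDM5C. The genes were taken by name from the 22911 genes of the deposited tables by a rule that uses no measured value. They were, however, chosen with earlier results of these data known. They are *E2f6*, *Mga*, *Max*, *L3mbtl2* and *Pcgf6*, which encode subunits of the Polycomb complex PRC1.6, and *Ehmt1*, *Ehmt2* and *Setdb1*, which encode methyltransferases of lysine 9 of histone H3 (H3K9). All 8 passed the minimum of 1 read in each comparison.

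RNA-Seq of EpiLCs covered 12 samples in 4 groups of 3, namely *Kdm5c* fl/fl and *Kdm5c* Δ/Δ females, and *Kdm5c* flY and *Kdm5c* ΔY males. The fl allele is the floxed parent of the Δ allele and stands for the control in both sexes. The Δ allele lacks exons 11 and 12, which encode the demethylase domain, and arises from fl by Cre recombination. Each genotype was represented by 3 embryonic stem cell (ESC) lines, which were grown in 2i medium with LIF and then differentiated for 48 h with FGF2 and Activin A. The labels give the strain as C57BL/6J, whereas the methods state that the floxed strain arose on a mixed background.

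E2F6 is a transcriptional repressor of the E2F family that lacks an activation domain. MGA is a large scaffold that binds DNA as a partner of MAX, the small protein that also serves MYC, and L3MBTL2 and PCGF6 complete the core of PRC1.6. This complex places ubiquitin on histone H2A at CpG-rich promoters of meiotic and other germline genes. EHMT1 (GLP) and EHMT2 (G9a) act as a heterodimer that mono- and dimethylates H3K9, while SETDB1 trimethylates it. In the epiblast these activities act together with DNA methylation on germline promoters.

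Both DNA-binding arms of PRC1.6 have well-known recognition letters, TCCCGC for E2F6 and the E-box CACGTG for MAX with its partners. These letters were searched on both strands in the 250 bases before each RefSeq start site (assembly GRCm38.p6), and a match of one can share at most 1 letter with a match of the other. Among 32851 windows of all genes, 16.9% held TCCCGC, 6.02% held CACGTG and 1.45% held both. The 22 germline genes described later were listed because these repressors are known to bind or silence them. They had 27 windows, of which 33.3% held TCCCGC, 55.6% held CACGTG and 18.5% held both. Windows of 1 gene can overlap and count the same bases more than once, as windows of *Hormad1*, *Stk31* and *Tdrd1* do. The 5 windows with both motifs belonged to 4 genes. Of the 9 windows of the 8 repressor genes, 1 held TCCCGC (*E2f6*), 2 held CACGTG (both windows of *Ehmt2*) and 0 held both. The repressor windows with a match are shown first (1 of the 2 for *Ehmt2*), followed by 1 window for each of the 4 germline genes that held both motifs. Capitals mark the motifs, on either strand, and each sequence runs 5′ to 3′ in the sense of the gene.
E2f6, chr12:16810715-16810964, plus strand: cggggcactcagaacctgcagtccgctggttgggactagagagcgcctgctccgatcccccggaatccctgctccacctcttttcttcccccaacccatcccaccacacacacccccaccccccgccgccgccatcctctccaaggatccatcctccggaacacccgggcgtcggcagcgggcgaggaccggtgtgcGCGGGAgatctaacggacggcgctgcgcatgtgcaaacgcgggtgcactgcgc
Ehmt2, chr17:34898720-34898969, plus strand: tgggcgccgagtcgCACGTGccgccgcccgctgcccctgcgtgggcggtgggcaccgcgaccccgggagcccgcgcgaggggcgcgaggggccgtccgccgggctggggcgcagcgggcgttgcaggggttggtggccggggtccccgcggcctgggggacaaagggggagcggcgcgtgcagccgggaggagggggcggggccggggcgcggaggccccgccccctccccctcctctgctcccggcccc
Ddx4, chr13:112652311-112652560, minus strand: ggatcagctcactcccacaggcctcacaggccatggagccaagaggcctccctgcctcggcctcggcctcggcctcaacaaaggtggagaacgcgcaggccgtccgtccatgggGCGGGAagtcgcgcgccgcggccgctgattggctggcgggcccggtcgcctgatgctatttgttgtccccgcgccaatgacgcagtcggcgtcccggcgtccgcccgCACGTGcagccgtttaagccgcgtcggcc
Hormad1, chr3:95559427-95559676, plus strand: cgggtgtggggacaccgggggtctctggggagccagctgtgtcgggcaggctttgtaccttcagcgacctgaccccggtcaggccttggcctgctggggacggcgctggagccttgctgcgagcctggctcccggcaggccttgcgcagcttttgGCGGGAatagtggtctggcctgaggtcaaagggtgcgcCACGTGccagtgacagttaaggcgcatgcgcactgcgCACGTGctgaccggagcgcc
Mael, chr1:166238745-166238994, minus strand: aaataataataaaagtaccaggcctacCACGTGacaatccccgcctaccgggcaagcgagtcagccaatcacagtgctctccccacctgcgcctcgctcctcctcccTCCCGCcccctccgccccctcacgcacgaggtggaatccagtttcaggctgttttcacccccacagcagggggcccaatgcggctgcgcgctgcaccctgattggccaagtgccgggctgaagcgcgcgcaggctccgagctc
Sycp3, chr10:88459337-88459586, plus strand: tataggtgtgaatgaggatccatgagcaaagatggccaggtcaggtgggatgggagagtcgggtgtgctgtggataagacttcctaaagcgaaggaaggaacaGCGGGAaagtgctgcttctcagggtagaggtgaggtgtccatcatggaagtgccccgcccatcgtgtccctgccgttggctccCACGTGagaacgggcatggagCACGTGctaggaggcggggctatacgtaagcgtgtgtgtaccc

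A match is a description of these letters and was not read as a binding site. The 4 germline genes shown did not move alike in the mutants, as described with the germline genes.

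The deposited values are means of normalized counts over the 3 libraries of a group, from which the whole reads of each library were worked out. The libraries of a group are called A, B and C by falling size factor, and cannot be tied to sample numbers. They held 5516216 to 11092731 reads on the genes whose reads were worked out. *Kdm5c* itself (chrX:148667563-148709078, plus strand, mm9) fell in Δ/Δ females, from a normalized count of 2360 ± 60.7 (SD, n = 3) to 1453 ± 49.7 (log2 fold change −0.70, limma adjusted p = 4.53e-09). In males it was 2226 ± 133 in flY and 1938 ± 39.7 in ΔY (−0.20, limma adjusted p = 0.271). Since the count covers the whole gene and Δ removes 2 exons, it checks the labels only in part. Male libraries flY B and ΔY A stood apart from their group mates. Their median absolute log2 difference from those mates was 0.224 and 0.252, against 0.0752 to 0.0852 in female libraries and 0.125 to 0.157 in the other male libraries. Libraries flY A and C also held 8133 and 6277 reads on 4982 genes that were silent in the other groups, where flY B held 736. The male counts of called genes in the comparisons and gene lists are therefore given with and without flY B and ΔY A. The 6 markers of epiblast-like cells, *Fgf5*, *Otx2*, *Pou3f1*, *Dnmt3b*, *Lef1* and *Pou5f1*, were read in every library, with summed normalized counts of 5865 to 15496. *Pou5f1* (2750 to 4402) and *Dnmt3b* (2044 to 7264) held most of this sum in each library, and *Pou3f1* ranged from 233 in ΔY B to 1387 in flY B. The sum does not by itself show the state of the cells.

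**Figure D1:**
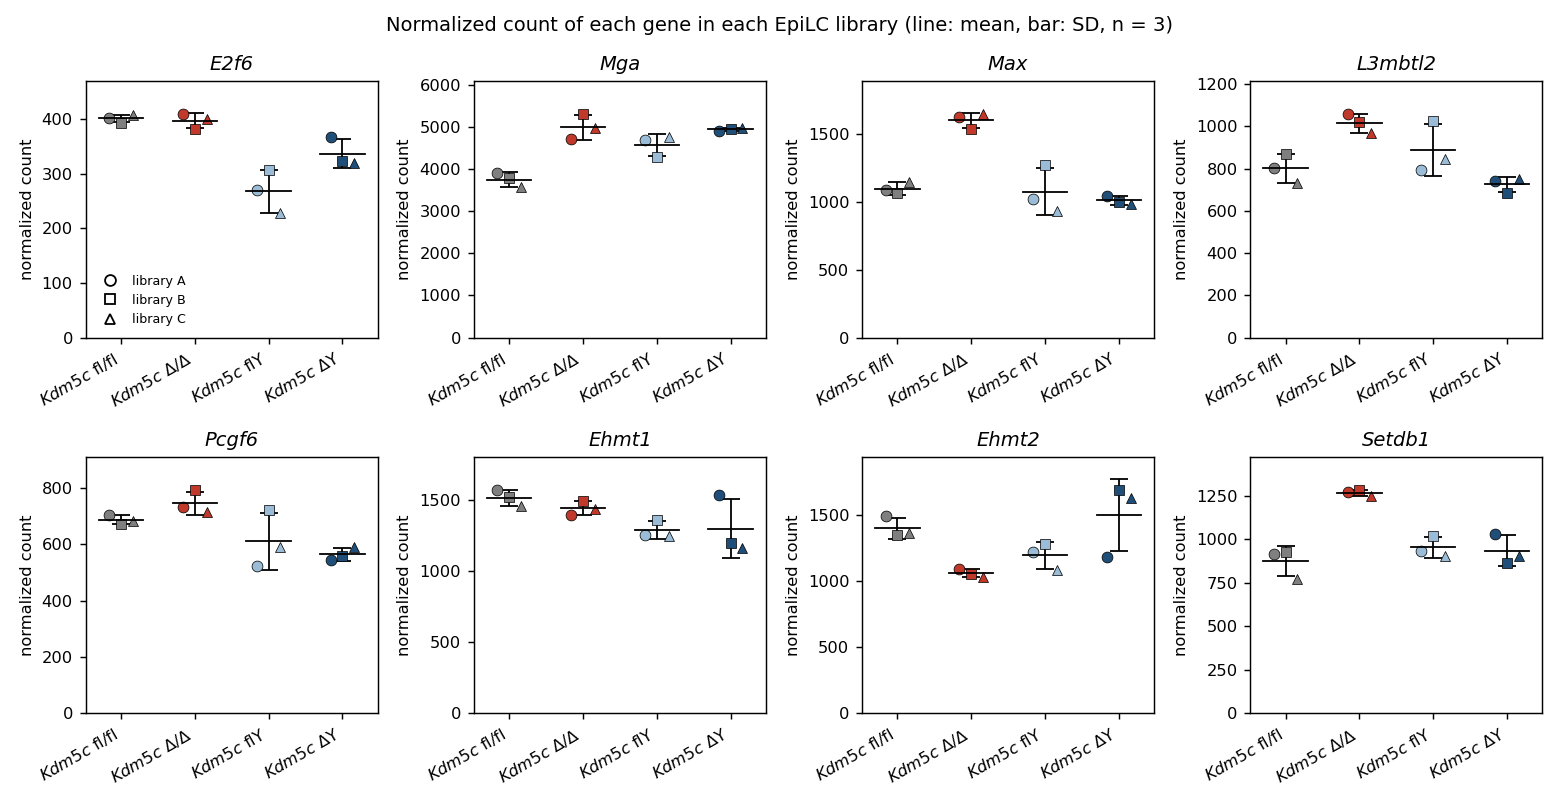
Normalized count (vertical axes, linear, from 0) of the 8 genes in libraries A (circle), B (square) and C (triangle) of the 4 groups; the line is the mean and the bar the SD of 3 libraries. *Max*, *Mga*, *L3mbtl2* and *Setdb1* lie higher and *Ehmt2* lower in all Δ/Δ libraries than in any fl/fl library, and ΔY library A parts from B and C for *Ehmt1* and *Ehmt2*.

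In Δ/Δ females 5 of the 8 genes passed the threshold of an adjusted p under 0.05. *Max*, *Mga*, *L3mbtl2* and *Setdb1* rose by 1.27- to 1.46-fold, whereas *Ehmt2* fell to 0.758 of its control level. Of all 19572 genes tested, 50.1% passed the same threshold (25.4% higher and 24.7% lower), so a share of 5 in 8 is near the background of this comparison. The median log2 fold change of the 8 genes was 0.23, against 0.0037 over all genes.

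The DNA-binding subunits differed among themselves. *Max* (chr12:78038256-78063235, minus strand, mm9), the shared partner of MGA and MYC, had normalized counts of 1086, 1064 and 1151 in fl/fl libraries A, B and C and of 1625, 1543 and 1647 in Δ/Δ. All Δ/Δ libraries lay above all fl/fl libraries, and the log2 fold change was 0.54 ± 0.056 (SE; limma adjusted p = 2.28e-07). *Mga* (chr2:119722964-119795317, plus strand), the scaffold, counted 3895, 3780 and 3558 in fl/fl and 4696, 5289 and 4966 in Δ/Δ. Again the groups did not overlap, and the log2 fold change was 0.41 ± 0.058 (limma adjusted p = 9.25e-06). *E2f6* (chr12:16817771-16833549, plus strand), the E2F arm, counted 403, 394 and 408 in fl/fl and 409, 383 and 401 in Δ/Δ. Here the groups overlapped, and the 95% interval of the log2 fold change ran from −0.16 to 0.13 around −0.015 (limma adjusted p = 0.872).

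Of the other PRC1.6 subunits, *L3mbtl2* (chr15:81494319-81518745, plus strand), which encodes a chromatin reader with MBT domains, counted 802, 868 and 732 in fl/fl and 1056, 1019 and 967 in Δ/Δ. It rose without overlap by 0.34 ± 0.067 on the log2 scale (limma adjusted p = 0.00031). Its exons share 1023 bp, or 17.2% of their length, with the antisense gene *Chadl*, whose normalized count was 34.8 ± 11.2 in fl/fl and 64.1 ± 21.5 in Δ/Δ. *Pcgf6* (chr19:47108109-47125380, minus strand), the RING partner that defines PRC1.6, counted 704, 673 and 684 in fl/fl and 732, 792 and 714 in Δ/Δ. These libraries did not overlap either, but the change of 0.12 ± 0.062 did not pass the threshold (limma adjusted p = 0.126). Non-overlapping libraries were found for 6 of the 8 genes in females, and for 54.8% of all genes tested.

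Of the H3K9 methyltransferases, *Ehmt2* (chr17:35035414-35050997, plus strand), which encodes G9a, was the only one of the 8 genes called lower in the main fit. It counted 1489, 1346 and 1361 in fl/fl and 1091, 1055 and 1030 in Δ/Δ, without overlap. The log2 fold change was −0.40 ± 0.058 (limma adjusted p = 1.37e-05). Its partner *Ehmt1* (chr2:24646289-24775129, minus strand), which encodes GLP, counted 1568, 1520 and 1457 in fl/fl and 1392, 1491 and 1439 in Δ/Δ. The groups overlapped, with a log2 fold change of −0.073 and a 95% interval of −0.19 to 0.044 (limma adjusted p = 0.305). *Setdb1* (chr3:95127447-95161124, minus strand), which encodes the trimethylating enzyme that KRAB zinc finger proteins recruit, counted 914, 928 and 773 in fl/fl and 1271, 1281 and 1246 in Δ/Δ. It rose without overlap by 0.54 ± 0.068 (limma adjusted p = 2.19e-06).

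The 5 female calls held in all 12 alternative analyses. One further call appeared when libraries were scaled to their total of recovered reads, where *Ehmt1* stood at −0.14 (limma adjusted p = 0.0393). Markers of other cells moved with the female genotype. All 6 endoderm markers rose, from a summed normalized count of 172 to 220 in fl/fl to one of 2295 to 2443 in Δ/Δ, and none of them was at 0 in any library. Of 6 markers of naive ESCs, 5 rose and 0 fell (summed 878 to 896 against 2650 to 2820). Of 6 fibroblast markers, 0 rose and 3 fell (2245 to 2315 against 768 to 824), and *Lum* was at 0 in 2 of the 12 libraries. Most of the fl/fl sum was *Col1a1* (1270 to 1330, against 279 to 284.5 in Δ/Δ) and *Col1a2* (755.5 to 767.5, against 300 to 375). *Col3a1* overlapped, at 87.8 to 99.6 in fl/fl and 87.8 to 96.0 in Δ/Δ. Beside these marker counts, 50.1% of all genes were called in females, 25.4% higher and 24.7% lower. The part of these cells in the changes of the repressor genes was not tested. In such bulk samples, fewer cells of a type and less RNA per cell cannot be told apart.

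In ΔY males, limma called 0 of the 8 genes at an adjusted p under 0.05, and 0 also had an unadjusted p under 0.05, with limma trend and with limma voom alike. The background was 7.80% of 21872 genes called (4.21% higher and 3.59% lower), with 5394 genes at an unadjusted p under 0.05. The 1705 calls behind this share became 4691 without flY B and 4310 without ΔY A, and 333 to 595 without flY A, flY C, ΔY B or ΔY C. The intervals were wide. *E2f6* counted 270, 307 and 228 in flY libraries A, B and C and 368, 323 and 321 in ΔY. The ΔY libraries all lay above the flY libraries, with a log2 fold change of 0.34 and a 95% interval of −0.0032 to 0.67 (limma adjusted p = 0.206). *Ehmt2* counted 1218, 1277 and 1082 in flY and 1183, 1686 and 1624 in ΔY. Library ΔY A lay within the range of the controls and B and C above it, and the log2 fold change was 0.31 ± 0.15 (limma adjusted p = 0.232). Without ΔY A, *Ehmt2* passed the threshold at 0.48 (limma adjusted p = 0.013).

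The other PRC1.6 subunits were as follows in males. *L3mbtl2* counted 794, 1026 and 846 in flY and 743, 682 and 750 in ΔY. The ΔY libraries lay below all flY libraries, and the log2 fold change of −0.29 had a 95% interval of −0.57 to 0.0027 (limma adjusted p = 0.206). *Chadl*, on its other strand, counted 70.2 ± 10.9 in flY and 57.4 ± 4.48 in ΔY. *Mga* counted 4678, 4274 and 4763 in flY and 4906, 4943 and 4964 in ΔY, also without overlap (0.11, 95% interval −0.13 to 0.35, limma adjusted p = 0.523). *Max* counted 1022, 1275 and 937 in flY and 1048, 1004 and 985 in ΔY, where flY B alone stood above every ΔY library. *Pcgf6* counted 522, 722 and 591 in flY and 545, 558 and 591 in ΔY, again with the highest value in flY B. The log2 fold changes were −0.079 for *Max* (95% interval −0.38 to 0.22) and −0.10 for *Pcgf6* (−0.42 to 0.21).

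For the methyltransferases in males, *Setdb1* counted 932, 1020 and 904 in flY and 1032, 863 and 905 in ΔY, with overlap and a 95% interval of −0.30 to 0.23. *Ehmt1* counted 1251, 1359 and 1246 in flY and 1535, 1195 and 1162 in ΔY. Library ΔY A lay above all controls and the other ΔY libraries below them, so that the mean change was 0.0025 (95% interval −0.29 to 0.30). Non-overlapping libraries were thus found for 3 of the 8 genes (*E2f6*, *Mga*, *L3mbtl2*), against 26.5% of all genes. Without flY B and ΔY A, a choice made after seeing the data, 2 of the 8 genes were called, both higher, against 42.9% of the 21777 genes tested, with 17.7% called higher. These were *E2f6* at 0.37 (limma adjusted p = 0.0299) and *Ehmt2* at 0.53 (limma adjusted p = 0.00177).

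**Figure D2:**
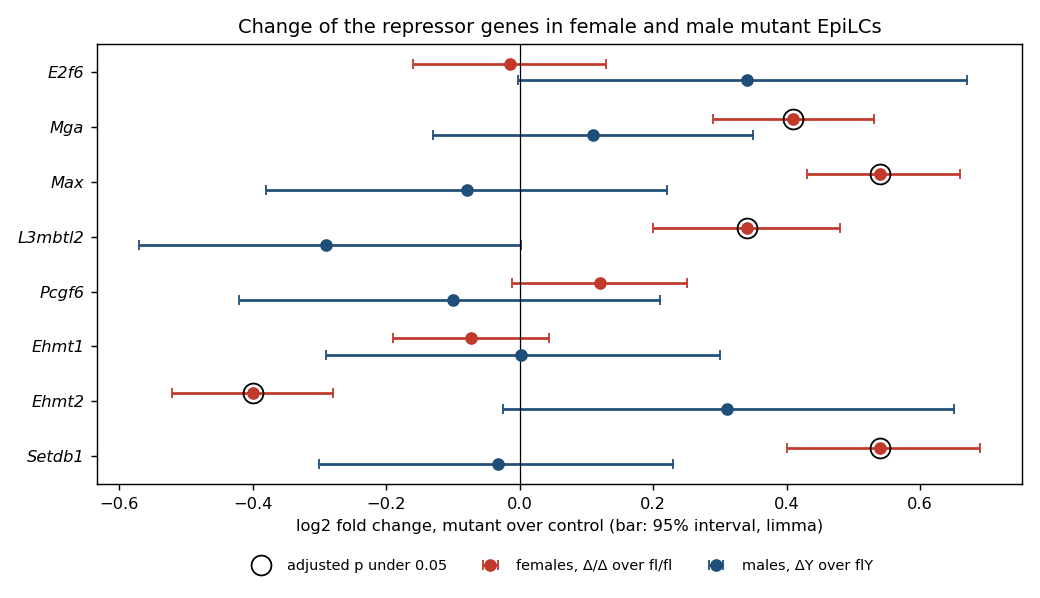
Log2 fold change of mutant over control (horizontal axis) for the 8 genes in females (red) and males (blue), with the 95% interval of the limma fit; open black circles mark an adjusted p under 0.05. The female intervals of *Mga*, *Max*, *L3mbtl2*, *Setdb1* and *Ehmt2* exclude 0, while all 8 male intervals include it and are wider.

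Whether the change differed between the sexes was tested on all 12 libraries, as the male change minus the female change. This test uses the same libraries as both comparisons above. It called 4 of the 8 genes, with a background of 21.2% of 22014 genes. The difference was −0.62 ± 0.14 for *Max* (limma adjusted p = 0.00669), −0.63 ± 0.14 for *L3mbtl2* (limma adjusted p = 0.00702), −0.57 ± 0.13 for *Setdb1* (limma adjusted p = 0.00769) and 0.72 ± 0.17 for *Ehmt2* (limma adjusted p = 0.00792). The change was thus more positive in females for the first 3 genes and more negative for *Ehmt2*. All 4 were called in all 18 alternative analyses. *Mga* at −0.30 (limma adjusted p = 0.0743) and *E2f6* at 0.35 (limma adjusted p = 0.127) did not pass. Both passed without flY B (limma adjusted p = 0.0124 for *Mga* and 0.0178 for *E2f6*) and without both flY B and ΔY A (0.00589 and 0.0121), where 6 of the 8 and 45.6% of 21959 genes were called, and *Mga* also with a mean of at least 10 (0.0456) and with limma voom (0.0487). *Pcgf6* (−0.22, 95% interval −0.54 to 0.10) and *Ehmt1* (0.075, −0.23 to 0.38) did not pass the threshold.

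The controls of the 2 sexes were compared in the same fit. *E2f6* was higher in fl/fl females than in flY males by 1.51-fold, or 0.59 ± 0.11 on the log2 scale (limma adjusted p = 0.00208), and held this call in all 18 alternatives. Its lowest female control library, at 394, lay above its highest male one, at 307. Alternatives that leave out only a Δ/Δ or ΔY library change the spread of this fit and not the fold change between controls. *Mga* was lower in the female controls, by −0.29 ± 0.079 (limma adjusted p = 0.0201), a call that was lost without fl/fl B (0.0581), fl/fl C (0.0913), flY A (0.0704) or flY C (0.0745). Against these 2 of 8 genes, 21.5% of all genes were called, and 4 of 8 against 35.7% had control libraries that did not overlap. Without ΔY A, *Ehmt1* (limma adjusted p = 0.0148) and *Ehmt2* (0.0315) were called as well. Their log2 fold changes stayed at 0.24 and 0.23, since ΔY A enters this comparison only through the spread. Without flY B and ΔY A, 6 of the 8 and 48.8% of 21959 genes tested were called, adding *Ehmt1* (0.28), *Ehmt2* (0.28), *Pcgf6* (0.31) and *Max* (0.17). Sex and the lines that carry it cannot be told apart here.

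Set per kb of exon, the levels of the 8 genes can be ordered within a group. The smallest, *Max*, had the highest normalized count per kb in each group, at 549 ± 22.4 in fl/fl, 800 ± 27.4 in Δ/Δ, 538 ± 87.6 in flY and 505 ± 16.1 in ΔY, without overlap with the next gene. In fl/fl, *Ehmt2* (255 ± 14.3) and *Mga* (244 ± 11.2) followed with overlapping libraries, then *Ehmt1* (213 ± 7.81), *Pcgf6* (168 ± 3.87) and *E2f6* (164 ± 2.87), the last 2 overlapping. *L3mbtl2* (135 ± 11.5) and *Setdb1* (127 ± 12.5) overlapped at the lower end. In Δ/Δ the order after *Max* and *Mga* (325 ± 19.3) closed up. *Ehmt1* (202 ± 6.96) overlapped *Ehmt2* (193 ± 5.6), and from *Setdb1* (185 ± 2.64) through *Pcgf6* and *L3mbtl2* to *E2f6* (162 ± 5.45) each neighbour overlapped the next. In flY the lowest gene was *E2f6* (109 ± 16), below *Setdb1* (139 ± 8.86) without overlap. In ΔY, *Ehmt2* (273 ± 49.9) came after *Max* and *Mga* and overlapped *Ehmt1* (182 ± 29), while *Pcgf6*, *E2f6*, *Setdb1* and *L3mbtl2* lay between 138 and 122 with each neighbour overlapping the next.

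Ratios of partners within a library do not depend on the size factor. The log2 ratio of *Ehmt2* over *Ehmt1*, the partners in the heterodimer, was −0.08, −0.17 and −0.10 in fl/fl and −0.35, −0.50 and −0.48 in Δ/Δ. It was lower in every Δ/Δ library, by a difference of −0.33 (exact permutation p = 0.1, the smallest that 3 libraries against 3 allow, and 0.3 after adjustment over 6 tests). In males the ratio was −0.04, −0.09 and −0.20 in flY and −0.38, 0.50 and 0.48 in ΔY. Library ΔY A lay below the controls and B and C above them, and the difference of 0.31 became 0.60 without ΔY A and 0.16 at the lowest with 1 library left out. The ratio of *Pcgf6* over *L3mbtl2* was higher in all ΔY libraries (−0.45, −0.29, −0.34) than in flY (−0.60, −0.51, −0.52; exact permutation p = 0.1, adjusted 0.3). In females it overlapped (difference −0.23), as did the ratio of *Mga* over *Max* in females (−0.13) and males (0.19, from 0.02 without flY B to 0.32 without flY C).

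The genes whose log2 level went most nearly with each of the 8 over the 12 libraries were sought among the 9701 genes whose mean over the libraries reached 100. Pearson's r is given as a description, since the 12 libraries fall into 4 groups and share size factors and depth. *E2f6* went with *Pom121* (0.984) and *Ctdsp1* (0.982), *Mga* with *Abi1* (0.985) and *Pdlim5* (0.957), *Max* with *Ifrd1* (0.978) and *Drosha* (0.977), and *L3mbtl2* with *Sult4a1* (0.959) and *Gtf2e1* (0.940). *Pcgf6* went with *Cyc1* (0.954) and *Mrto4* (0.954), *Ehmt1* with *Pds5a* (0.964) and *Lefty2* (0.959), *Ehmt2* with *Arvcf* (0.987) and *Map2k1* (0.954), and *Setdb1* with *Wibg* (0.966) and *Zscan21* (0.964). None of these genes is another of the 8.

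The remaining subunits of PRC1.6 and partners of E2F6 showed changes in both directions. Of 11 genes, 4 rose and 2 fell in females (median log2 fold change 0.12), and 1 rose and 0 fell in males (0.25, against −0.16 over all genes). The background for this and the following lists was 50.1% of all genes called in females, 25.4% higher and 24.7% lower. In males it was 7.80%, 4.21% higher and 3.59% lower. Without flY B and ΔY A it was 42.9% in males, with 17.7% called higher. *Rybp*, which encodes a subunit that stimulates the ubiquitin ligase, counted 804 to 848 in fl/fl and 1222 to 1298 in Δ/Δ (0.60, limma adjusted p = 6.76e-08). *Tfdp1*, the dimerization partner of E2F proteins, rose by 0.46 (limma adjusted p = 5.87e-07). The deacetylase gene *Hdac2* fell by 0.46 on the log2 scale (limma adjusted p = 2.18e-06), whereas the other deacetylase gene of this list, *Hdac1*, rose by 0.32 (limma adjusted p = 3.17e-05). *Yaf2*, the paralog of *Rybp*, fell by 0.28 (limma adjusted p = 0.0161), a call lost without Δ/Δ C (0.07) or fl/fl A (0.0716). Without flY B and ΔY A, 5 rose and 1 fell in males. In the fit of all male libraries the call was *Ring1*, a ubiquitin ligase subunit, with counts of 77.8 to 92.0 in flY and 125 to 153 in ΔY (0.72, limma adjusted p = 0.0465). It was lost without flY A, flY C, ΔY B or ΔY C (limma adjusted p 0.119 to 0.192).

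Of 10 other H3K9 methylation genes tested, 5 rose and 2 fell in females (median 0.21), and 0 rose and 1 fell in males (0.12). In males 2 rose and 4 fell without flY B and ΔY A. *Fam208a*, which encodes the HUSH subunit TASOR, counted 1039 to 1166 in fl/fl and 2024 to 2199 in Δ/Δ (0.95, limma adjusted p = 2.94e-10). *Setdb2*, a relative of *Setdb1*, rose by 0.78 (limma adjusted p = 2.03e-06). *Wiz*, a zinc finger partner of the EHMT heterodimer, fell by 0.41 (limma adjusted p = 0.0024). *Zfp644*, another zinc finger gene of this list, rose by 0.38 (limma adjusted p = 4.21e-05). *Suv39h1*, a trimethylating enzyme of heterochromatin, fell by 0.32 (limma adjusted p = 0.000878). In males *Mphosph8*, another HUSH gene, fell by 0.50 (limma adjusted p = 0.0455), a call lost without flY A, flY C, ΔY B or ΔY C (0.149 to 0.206) and with limma voom (0.0518).

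Among 12 genes of other PRC1 complexes, 3 rose and 1 fell in females (median 0.03), and 1 rose and 1 fell in males (−0.04). The male counts were 4 and 3 without flY B and ΔY A. *Pcgf2* (0.44, limma adjusted p = 1.57e-05) and *Bcor* (0.37, limma adjusted p = 5.92e-05) rose in females, and *Kdm2b*, which recruits PRC1.1 to CpG islands, counted 1602 to 1638 in fl/fl and 1057 to 1070 in Δ/Δ (−0.61, limma adjusted p = 2.06e-08). *Bmi1*, a canonical PRC1 subunit, also rose in females (0.27, limma adjusted p = 0.0418). With each of the 6 female libraries left out in turn, this call was lost for 5 of them (highest 0.173). In males *Bcor*, a PRC1.1 subunit, rose by 0.83 (limma adjusted p = 0.0375) and *Bmi1* fell by 0.64 (limma adjusted p = 0.0316). Both male calls were lost without flY A, flY C, ΔY B or ΔY C (0.133 to 0.173 for *Bcor* and 0.0915 to 0.151 for *Bmi1*).

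Of 10 genes of the MAX network, the MYC genes, their antagonists and the related MLX branch, 4 rose and 4 fell in females (median −0.07), and 0 rose and 1 fell in males (−0.03). In females 2 rose without Δ/Δ A or without fl/fl C, and without flY B and ΔY A 1 rose and 3 fell in males. *Mycn* counted 359 to 378 in fl/fl and 1250 to 1375 in Δ/Δ (1.83, limma adjusted p = 6.45e-14), and *Myc* rose by 0.86 (limma adjusted p = 6.87e-08). The MYC gene *Mycl* fell by 0.41 (limma adjusted p = 0.00112). Of the antagonists, *Mnt* fell by 0.88 (limma adjusted p = 9.75e-09) and *Mxd4* by 0.55 (limma adjusted p = 0.0115), the latter call lost without Δ/Δ B (0.0539). The antagonist gene *Mxd1* rose by 0.53 (limma adjusted p = 0.0256), a call lost without Δ/Δ A or fl/fl C. *Mxi1* fell in females by 0.25 (limma adjusted p = 0.00551), a call that held with each female library left out (highest 0.0331). It also fell in males by 0.54 (limma adjusted p = 0.0281), a call lost without flY A, flY C, ΔY B or ΔY C (0.0825 to 0.12). Of 7 other E2F genes, 2 rose and 3 fell in females (median −0.18), and 1 rose and 0 fell in males (0.02). Leaving out flY B and ΔY A gave 3 that rose and 1 that fell in males. In females *E2f3* (0.43, limma adjusted p = 7.47e-06) and *E2f2* (0.59, limma adjusted p = 0.0132) rose, and *E2f8* fell by 0.53 (limma adjusted p = 4.05e-05) and *E2f1* by 0.23 (limma adjusted p = 0.0131). The call of *E2f2* was lost without Δ/Δ A (0.0655) or fl/fl A (0.0635), and that of *E2f1* without Δ/Δ C (0.0907), fl/fl A (0.0667) or fl/fl C (0.0937), and 1 gene of this list fell without Δ/Δ C or without fl/fl C. In males *E2f2* rose by 0.91 (limma adjusted p = 0.0379), lost without flY A, flY C, ΔY B or ΔY C (0.136 to 0.179).

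The germline genes that these repressors are known to bind or silence moved in both sexes, and not in 1 direction. The list was chosen with earlier results of these data known. Of 22 such genes, 15 rose and 6 fell in females, with a median log2 fold change of 1.16, whereas 5 rose and 5 fell in males, with a median of −0.18. Over all genes 50.1% were called in females and 7.80% in males. In the test between the sexes 1 was called with a more positive and 14 with a more negative change in males, against 21.2% of all genes called. Without flY B and ΔY A, 10 rose and 8 fell in males, against 42.9% of all genes called. With 1 library left out, the count of genes that rose in males was 8 without ΔY A, 3 without ΔY B or ΔY C, 2 without flY A and 1 without flY C, and 3 fell without flY C. The fl/fl females had the lowest summed normalized count of the list, 3326 to 3397, against 11883 to 13183 in Δ/Δ, 7127 to 7923 in flY and 6004, 11798 and 11675 in ΔY libraries A, B and C. ΔY A thus lay below the male controls and B and C above them.

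*Dazl*, which encodes an RNA-binding protein of germ cells, counted 82.5 to 88.9 in fl/fl and 3338 to 3607 in Δ/Δ (5.32, limma adjusted p = 6.91e-20). In males it counted 150 to 243 in flY and 636, 2968 and 2770 in ΔY (3.17, limma adjusted p = 0.00662), a call lost without flY C (0.0602). *Stk31*, a kinase-like gene of germ cells, counted 20.1, 6.59 and 13.3 in fl/fl and 415 to 480 in Δ/Δ (5.10, limma adjusted p = 1.17e-11). In males it rose by 1.35 (limma adjusted p = 0.0095), a call lost without flY A (0.0505) or flY C (0.0716). *Stra8*, the gene that licenses entry into meiosis, counted 61.8 to 95.1 in flY and 440, 1070 and 1047 in ΔY (3.40, limma adjusted p = 0.000668), and also rose in females (0.97). The mutant libraries lay above the controls for these 3 genes in both sexes.

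Other genes of the list fell. *Sycp3*, a component of the synaptonemal complex, counted 805 to 909 in flY and 169 to 215 in ΔY (−2.18, limma adjusted p = 9.65e-05), and 360 to 404 in fl/fl and 216 to 254 in Δ/Δ (−0.69, limma adjusted p = 1.34e-06). *Slc25a31*, a germ cell ADP/ATP carrier, rose in females (1.13, limma adjusted p = 9.51e-07) and fell in males by 2.40 (limma adjusted p = 0.00432). *Tuba3b* fell in females by 0.83 (limma adjusted p = 0.000391) and in males by 2.58 (limma adjusted p = 0.0104), the latter lost without flY C (0.0628), but it has a near-identical copy in *Tuba3a*, so its reads are uncertain. Of the genes whose promoter windows held both motifs, *Ddx4* (1.19), *Hormad1* (1.89) and *Mael* (1.05) rose in females and *Sycp3* fell, while in males *Mael* fell by 1.65 (limma adjusted p = 0.00412) with *Sycp3*, and *Ddx4* (0.51, limma adjusted p = 0.0776) and *Hormad1* (0.85, limma adjusted p = 0.109) did not pass.

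**Figure D3:**
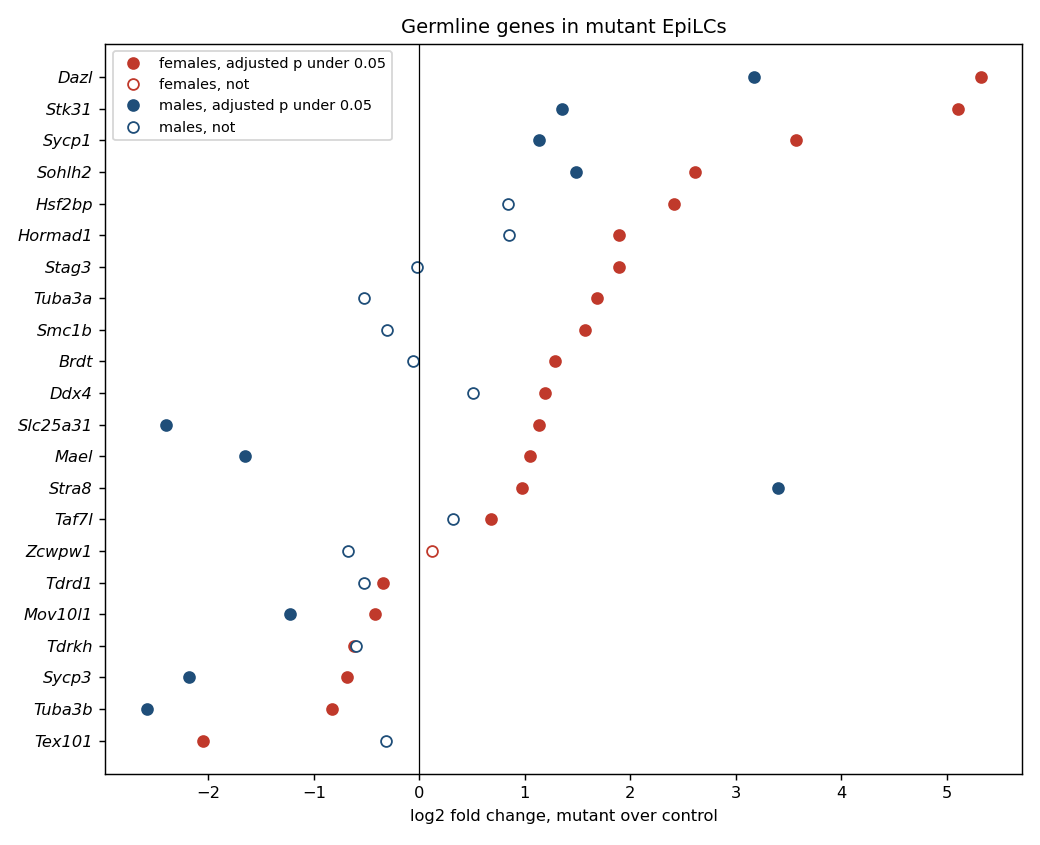
Log2 fold change of mutant over control (horizontal axis) of the 22 germline genes in females (red) and males (blue); filled points passed an adjusted p under 0.05. In females 15 genes are filled on the right of 0 and 6 on the left, in males 5 on each side.

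The markers of other cells moved in males as well. Of the epiblast-like cell markers 0 rose and 3 fell in ΔY, of the naive ESC markers 4 rose and 0 fell, of the endoderm markers 0 rose and 1 fell, and of the fibroblast markers 4 rose and 0 fell. In females 3 epiblast-like cell markers rose and 2 fell. Beside these marker counts, 7.80% of all genes were called in males and 50.1% in females. The summed endoderm markers were 199 in ΔY A and 934 in both other ΔY libraries, against 1151 to 1359 in flY. The summed naive ESC markers were 3730 in ΔY A, 6601 in B and 6759 in C, against 1350 to 2319 in flY. Fibroblast markers came to 4201 to 4750 in ΔY and 621 to 873 in flY. Most of the ΔY sum was *Col1a1* (1900 to 2675) and *Col1a2* (1545 to 1725). *Thy1* counted 93.3, 39.5 and 41.4 in ΔY libraries A, B and C, against 50.3 to 96.2 in flY. The summed epiblast-like cell markers were 9377 in ΔY A, within the range of 8921 to 15496 in flY, and 5897 and 5865 in ΔY B and C. ΔY A was thus lower than ΔY B and C in the summed germline, endoderm and naive ESC genes and in *Ehmt2*, and higher in the summed epiblast-like cell markers and in *Ehmt1*. Single markers did not all follow their sum, and the naive marker *Zfp42* counted 1318 in ΔY A against 1084 and 1105 in B and C. The part of these differences in the values of the repressor genes was not tested.

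**Figure D4:**
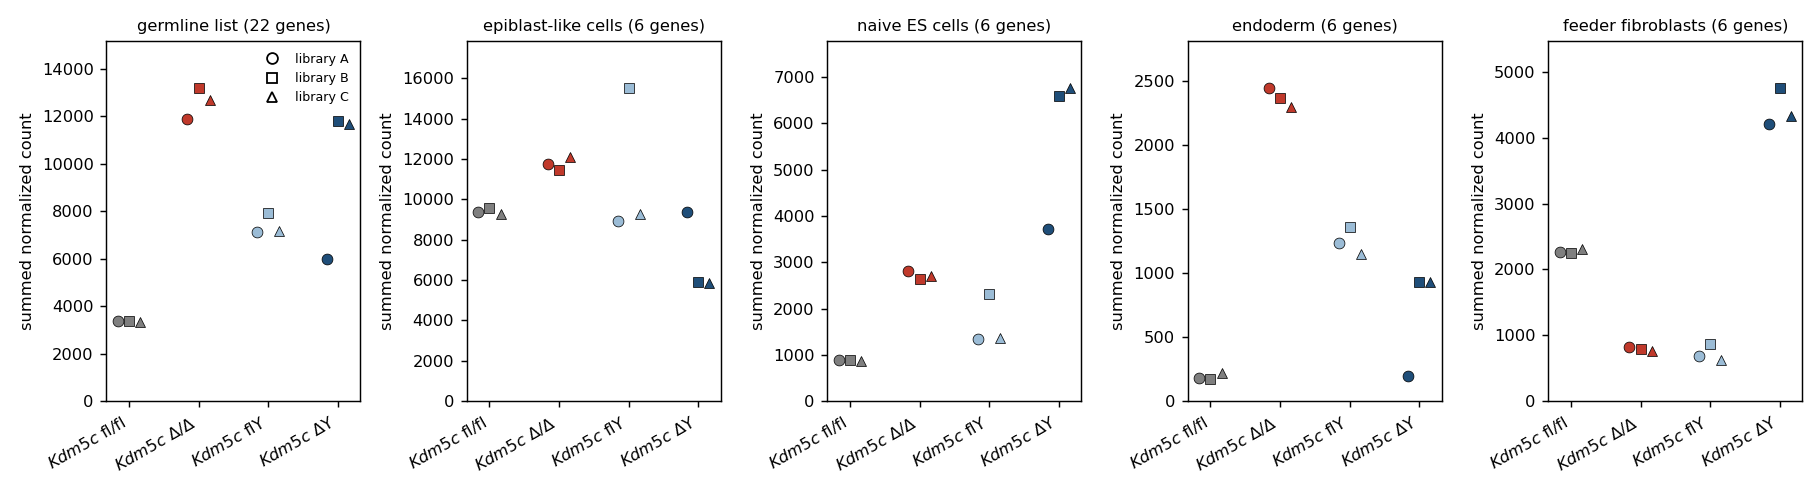
Summed normalized count (vertical axes, linear, from 0) of the germline list and of the markers of epiblast-like cells, naive ESCs, endoderm and feeder fibroblasts in libraries A (circle), B (square) and C (triangle) of the 4 groups. ΔY library A lies at 6004 for the germline list and at 199 for endoderm, apart from ΔY B and C, and flY B lies above flY A and C for epiblast-like and naive ESC markers.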

How the data were processed

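Ribosomal RNA-depleted, strand-specific libraries of EpiLCs (12 samples) were sequenced as single-end reads. Per the methods and the submitters' processing notes, the authors mapped reads to mm9 with TopHat2 2.1.0 (Bowtie2 2.2.6.0), kept uniquely mapped reads and compared groups with DESeq, with Cuffdiff also named. The counting annotation and strand setting are not given in the sources used here. The 2 deposited tables hold, as a signal, the authors' mean normalized count per gene over the 3 libraries of a group. They also hold overall means and the authors' ratios, log2 fold changes and p-values, which were not used.

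A group mean is a sum of whole reads divided by size factors, so size factors and reads per library were worked out by search. For genes with means up to 10000, 22808 genes gave 1 solution in all 12 libraries, and recovery was tested on simulated data. Log2(normalized count + 1) of genes with at least 1 read was fitted with limma 3.58.1 (trend, R 4.3.3), with Benjamini-Hochberg adjustment over all genes tested and a threshold of 0.05. Fold changes on this scale understate those of low genes. Males and females were fitted apart, and all 12 libraries together for the tests between sexes. Size factors of both tables were comparable, at 0.9932 to 1.004 of median-of-ratios factors over 12 libraries. P-values measure the spread between libraries, of which there are 3 a group. Gene positions and exon lengths come from GENCODE M1 (mm9), promoter windows from RefSeq (GRCm38.p6). All 8 genes matched both by symbol.

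The 8 genes, the gene lists and the markers were chosen with earlier results of these data known. Named genes were the 8, *Kdm5c*, for each list at most 2 largest rises and 2 largest falls per sex among called genes with a mean of at least 10, and for each of the 8 the 2 genes most correlated with it. *Chadl* (for its overlap with *L3mbtl2*) and *Mael*, *Ddx4* and *Hormad1* (for their promoter motifs) were added after their values were seen. So were *Zfp644*, *Mycl*, *Mxd1*, *Hdac1* and the female values of *Bmi1* and *Mxi1*. The same holds for the values of the single markers *Zfp42*, *Col1a1*, *Col1a2*, *Col3a1*, *Thy1*, *Pou5f1*, *Dnmt3b* and *Pou3f1*. Alternatives were a pseudocount of 0.1, a mean of at least 10, limma voom, scaling to total reads, median-of-ratios factors, 1 fit over 12 libraries and leaving out each library.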

Additional observations from a re-analysis of the deposited data

Results flagged for a closer look

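The change from control to mutant differed between females and males for 28 of the genes whose changes or marker sums are described here. The test was the interaction term of the limma fit over all 12 libraries. Of all genes, 21.2% were called in it. Most list genes were named because they were called within 1 sex in these same libraries. The count of 28 therefore cannot be read against that share. *Zfp644*, *Mycl*, *Mxd1*, *Hdac1* and the naive ESC, endoderm and fibroblast markers other than *Lum* were not looked at for this count. *Lum* was looked at and did not pass. Among the repressor genes the male change minus the female change on the log2 scale was −0.62 for *Max*, −0.63 for *L3mbtl2*, −0.57 for *Setdb1* and 0.72 for *Ehmt2*. For *Kdm5c* it was 0.50 (limma adjusted p = 0.00347), with a fall of 0.70 in females against one of 0.20 in males.

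Among the other subunits and H3K9 genes it was 0.93 for *Ring1*, −0.56 for *Setdb2*, 0.66 for *Wiz*, 0.43 for *Suv39h1* and −0.63 for *Mphosph8*. In the PRC1 and MAX network lists it was −0.46 for *Pcgf2*, −0.91 for *Bmi1*, −1.62 for *Mycn* and 0.71 for *Mnt*. Among germline genes it was −2.16 for *Dazl*, −3.75 for *Stk31*, −1.75 for *Tuba3b*, −1.49 for *Sycp3*, 2.42 for *Stra8*, −3.52 for *Slc25a31*, −2.70 for *Mael*, −0.69 for *Ddx4*, −1.04 for *Hormad1* and −2.21 for *Tuba3a*, which shares near-identical sequence with *Tuba3b*. Among markers of epiblast-like cells it was −0.97 for *Fgf5*, −2.08 for *Otx2*, −1.36 for *Pou3f1* and −1.49 for *Dnmt3b*. The largest limma adjusted p of these 28 was 0.0413 (*Pou3f1*). *Slc25a31* and *Mael* rose in females and fell in males. *Dazl*, *Stk31* and *Stra8* rose in both sexes, although the male calls of *Dazl* (limma adjusted p = 0.0602 without flY C) and *Stk31* (0.0505 without flY A, 0.0716 without flY C) were lost with 1 library left out. The controls of the sexes also differed for germline genes, with 1 of 22 higher and 12 lower in fl/fl females than in flY males. Of all genes, 21.5% were called between the controls. The same control libraries enter both comparisons.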

How the results depend on the processing

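Of 488 log2 fold changes of the 8 genes under alternatives, 450 kept direction and side of the threshold, 18 newly passed it, 4 no longer did and 16 changed sign, none of them a called value. The sign changes were small. In males they were *Max* (−0.17 to 0.048 with 1 library left out, above 0 without flY B; 0.023 without flY B and ΔY A), *Pcgf6* (−0.21 to 0.022, above 0 without flY B; 0.047), *Setdb1* (−0.11 to 0.023, above 0 without ΔY B or flY B) and *Ehmt1* (−0.12 to 0.076, below 0 without ΔY A, flY A or flY C; −0.084 without flY B and ΔY A; −0.011 scaled to total reads). Others were female *E2f6* (−0.036 to 0.012, above 0 without Δ/Δ B), *Ehmt1* between the sexes (−0.052 to 0.15, below 0 without ΔY A; −0.011 without flY B and ΔY A) and *Max* between controls (−0.054 to 0.17, below 0 without flY C; −0.02 scaled to total reads). The cause was not tested.

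The female count of 9799 called genes fell to 6493 in 1 fit over 12 libraries, which shares the wider male spread. The male count of 1705 ranged from 333 to 4691 with 1 library left out, and was 9352 without flY B and ΔY A and 4766 in 1 fit over 12 libraries. Between the sexes, 4675 ranged from 3554 to 7334 (without flY B) with 1 library left out and was 10014 without flY B and ΔY A. Between controls, 4741 ranged from 2894 to 8318 with 1 library left out and was 10724 without flY B and ΔY A. Of the 8 genes, males gave 1 call in 1 fit over 12 libraries (*E2f6*), 0 to 1 with 1 library left out and 2 without flY B and ΔY A. Between controls the 8 genes gave 1 to 4 calls with 1 library left out and 6 without flY B and ΔY A. In 1 fit over 12 libraries the other female lists also gave fewer calls, with 2 higher and 1 lower of the PRC1.6 partners, 3 higher of the H3K9 genes, 1 higher of the other PRC1 genes, 1 lower of the MAX network, and 1 higher and 1 lower of the E2F genes. Scaled to total reads, 2 genes of the MAX network were higher and 2 of the other PRC1 genes lower in females. The female germline count of 6 lower genes became 3 in 1 fit over 12 libraries. The male counts of 5 higher and 5 lower ranged from 1 to 8 and 3 to 7 with 1 library left out, were 10 and 8 without flY B and ΔY A, and 8 were higher in 1 fit over 12 libraries.

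No paired analysis was possible because the libraries worked out from group means carry no sample number. Each group holds 3 libraries, which limits every test here, and the exact permutation tests on ratios cannot go below 0.1. The ratio differences moved by less than the larger SD of their 2 groups, which was 0.5 for male *Ehmt2* over *Ehmt1* (0.16 to 0.60 with 1 library left out) and 0.31 for male *Mga* over *Max* (0.02 to 0.32).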
